A study of Mus with 2 samples.

Results

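The cells described here are stromal cells of the newborn mouse kidney that carried RNA of Cck, Corin, Nts or Fzd10, a group working-named medullary stroma. They numbered 138 of the 11369 cell barcodes kept, 63 of 6220 in replicate 1 and 75 of 5149 in replicate 2. A barcode was kept when it held at least 2000 unique molecular identifiers (UMIs, each standing for 1 captured RNA molecule) and at most 10% of them in mitochondrial genes. A member had at least 3 UMIs of Col1a2 plus Col3a1, which encode fibrillar collagens of stroma, and at least 1 UMI of EYFP, the yellow fluorescent reporter. It also had 0 UMIs of the epithelial gene Epcam, 0 of the endothelial gene Pecam1, at most 1 of the division gene Top2a, and at least 2 UMIs of Cck, Corin, Nts and Fzd10 together. The members were thus chosen by measured UMI counts of these genes in the same libraries, so the genes of the rule are described below and not tested.

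Single-cell RNA was counted from the 3′ ends of transcripts, on the 10x Chromium platform, in 2 kidney samples of P0 (newborn) mice of the genotype Rbpj c/- ; Foxd1cre/+. Both samples are mutants that lack one copy of Rbpj in every cell and carry a floxed second copy, removed where the Foxd1 promoter drives Cre recombinase. The design also names control kidneys (Rbpj c/+ ; Foxd1cre/+), which were not analysed here, so every comparison is between groups of cells within mutant kidneys. The labels do not say how many animals made each sample or where EYFP comes from, and the p-values measure only the spread between these samples, which may be technical.

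Foxd1-expressing progenitors give rise to most of the interstitium of the kidney, and Notch receptors act on genes through the protein that Rbpj encodes. The stroma is layered, from a Foxd1-positive cap around the nephron progenitors to a medullary zone around collecting ducts and loops of Henle. Wnt ligands from the ureteric epithelium act on the medullary stroma through β-catenin, and Wnt4 and Lef1 are known there. Cck and Nts encode peptide hormones, Corin a membrane serine protease that cleaves the precursor of atrial natriuretic peptide, and Fzd10 a Frizzled receptor for Wnt ligands. On the mouse build GRCm38.p6 (mm10) Cck lies on chromosome 9 from 121489824 to 121495694, Corin on chromosome 5 from 72299948 to 72504540 and Nts on chromosome 10 from 102481756 to 102490418. Fzd10 lies on chromosome 5 from 128601106 to 128604093, and Wnt4 on chromosome 4 from 137277635 to 137299501. All 5 are annotated as protein-coding.

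The members were a small share of the stroma with EYFP. They made up 4.34% of 1451 such barcodes in replicate 1 (exact 95% binomial interval 3.35 to 5.52) and 6.39% of 1174 in replicate 2 (5.06 to 7.94). The mean was 5.37% ± 1.45 (SD, n = 2). The intervals overlapped and cover counting error only. At least 2 UMIs of the rule genes were present in 93 and 94 stromal barcodes with EYFP. Of these, a UMI of Epcam kept out 25 and 10, a UMI of Pecam1 7 and 3, and 2 or more of Top2a 16 and 13. Each limit was counted by itself, so a barcode that failed several is in several of these counts. Among non-dividing stromal barcodes without a UMI of EYFP, 10 of 278 and 7 of 207 met the other conditions. No member barcode was shared by the libraries, of 6 shared among all barcodes kept.

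The members did not carry the 4 genes evenly. As shares of members with a UMI, Nts was found in 76.2% and 68.0%, Fzd10 in 60.3% and 69.3%, Corin in 33.3% and 64.0%, and Cck in 39.7% and 26.7%. In endothelial-type barcodes (at least 3 UMIs of Kdr and Cdh5 and none of the 2 collagen genes), with a median depth of 8609 and 9387 UMIs, the same shares were 2.76% and 3.33% for Nts, 1.08% and 1.66% for Fzd10, 0.307% and 0.95% for Corin, and 0 of 651 and 0 of 421 for Cck, which by a floor of 3 counts allows up to 0.461% and 0.713%. Corin was in a larger share of replicate 2 and Cck in a larger share of replicate 1. Summed over the members, Nts stood at 724 and 767 UMIs per 1e+06 (CPM), Fzd10 at 125 and 119, Corin at 59.9 and 105, and Cck at 122 and 39.7. In the other non-dividing EYFP stroma each of the 4 stood between 0.723 and 1.68 CPM in each library. All 4 genes were present together in 6 and 11 members, and only 1 of them in 19 and 19. The number of rule-gene UMIs per member ranged from 2 to 92 with a median of 8 in replicate 1, and from 2 to 105 with a median of 13 in replicate 2.

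**Figure D1:**
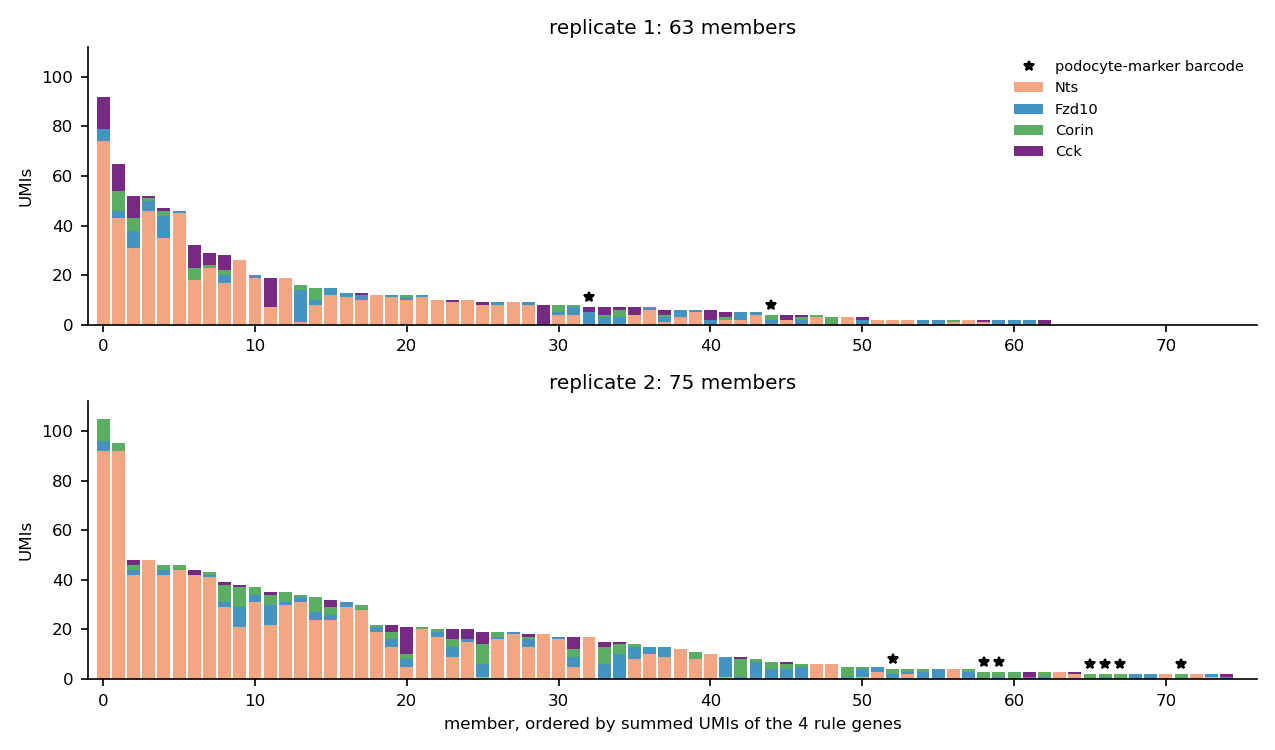
UMIs of Nts, Fzd10, Corin and Cck in each member, stacked, with members of each library ordered by their sum; stars mark barcodes with at least 3 UMIs of podocyte marker genes. Sums run from 2 to 92 in replicate 1 and from 2 to 105 in replicate 2, and the 2 and 7 starred barcodes each have fewer than 10.

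A few very deep member barcodes carried podocyte genes and bear on every sum. The libraries held 163405630 and 135436576 UMIs, and the members' median depth was 10235 and 10790 UMIs against 9403 and 8988.5 in the other non-dividing EYFP stroma. Barcodes with at least 3 UMIs of podocyte marker genes, among them Nphs1, which encodes nephrin of the slit diaphragm, numbered 2 of 63 and 7 of 75 members, yet held 15.8% and 45.2% of the members' UMIs. In the other non-dividing EYFP stroma they numbered 113 of 896 and 74 of 744, with 23.1% and 18.9% of the UMIs. EYFP itself was present in 51.9% and 48.3% of podocyte-type barcodes without collagen UMIs. Results are therefore given over all members and, where the values part, also without these podocyte-marker barcodes. No such member had a UMI of Nts, which was found in 48 and 51 members with or without them. Their depth therefore lowers the Nts level given above, more in replicate 2, and in replicate 2 that of Cck. The members' median mitochondrial share was 5.69% and 6.48% against 4.88% and 5.27%, and its part in the results was not tested.

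To ask what else marked the cells, members were compared with the other EYFP stroma of the same libraries, 1388 and 1099 barcodes. Of 13208 genes tested by edgeR's quasi-likelihood test, 246 (1.86% of those tested) were higher and 347 (2.63%) lower in members at an adjusted p under 0.05. Members carry a limit on Top2a that this comparison group does not. The main comparison below used the 896 and 744 barcodes under the same limits on Epcam, Pecam1 and Top2a, which differ from members only in having fewer than 2 rule-gene UMIs. There, 235 of 12050 genes (1.95%) were higher and 141 (1.17%) lower. Without podocyte-marker barcodes 488 of 11319 (4.31%) were higher and 348 (3.07%) lower, and 92.8% of the first calls were made again in the same direction. With a mitochondrial limit of 5%, which left 19 and 12 members, no gene passed, and 571 had an unadjusted p under 0.05. Podocyte-marker barcodes were 2 of those 19 and 6 of those 12, and held 37.6% and 89.3% of their UMIs.

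Wnt4 was among the genes with the largest positive changes. Wnt4, a secreted Wnt ligand that was proposed as a marker of these cells from the same data, stood at 634 and 705 CPM in members and at 25.9 and 29.4 in the other non-dividing stroma. The groups did not overlap, and the log2 fold change was 4.55 ± 0.23 (SE), adjusted p = 7.7e-06. Without podocyte-marker barcodes, members grouped by rule-gene UMIs ranged 267 to 1178 CPM of Wnt4 in replicate 1 and 584 to 1486 in replicate 2. Wnt4 UMIs were present in 77.8% and 86.7% of members. The share was 3.66% and 1.15% in erythroid-type barcodes, in which haemoglobin genes held at least 10% of the UMIs (median depth 4325 and 4482 UMIs), and 6.30% and 5.94% in endothelial-type barcodes (8609 and 9387 UMIs), types that should lack the gene. With each barcode thinned to 4000 UMIs the members' share was 71.0% and 82.7%.

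Further increases by the same rule follow. Slc17a8, a vesicular glutamate transporter, stood at 25.2 and 90.9 CPM against 0.103 and 0.906 (log2 6.78 ± 0.44, adjusted p = 3.7e-05). Nrxn3, a neurexin adhesion protein, stood at 144 and 176 CPM against 5.68 and 6.99 (4.60 ± 0.24, adjusted p = 7.8e-06). Dpp6, an auxiliary subunit of potassium channels, stood at 46.7 and 53.5 CPM against 1.55 and 1.29, and Rtn1, a reticulon of the endoplasmic reticulum, at 49.1 and 60.4 against 1.34 and 1.68. Slc17a8 differed most between the libraries. The rule that named these 4 genes required a higher level in members in each library. The 5 neural and glial markers summed to 9.58 and 8.41 CPM in members against 8.88 and 4.92, and without podocyte-marker barcodes to 8.54 and 1.39 against 9.54 and 4.62, which turns the order in both libraries. Of these markers, Sox10 and Tubb3 had 0 UMIs in both groups.

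Other large increases were in a growth factor, regulators and a collagen. Gdf7, a ligand of the bone morphogenetic protein (BMP) family, stood at 27.6 and 25.2 CPM against 0.103 and 0.388 (6.62 ± 0.61, adjusted p = 0.00028). Cpxm2, a carboxypeptidase-like protein, stood at 29.95 and 52.7 CPM against 0.310 and 0.129 (7.25 ± 0.54, adjusted p = 6.2e-05). Col15a1, a basement membrane collagen, stood at 497 and 442 CPM against 29.9 and 43.3 (3.65 ± 0.26, adjusted p = 5.2e-05). The transcription factors Gata2 (log2 4.20) and Dach2 (3.72), the ephrin receptor Epha4 (3.52), the channel-family gene Ano3 (3.51) and the antisense transcript Tbx3os1 (3.98) were also higher. Whether the counting used strand for Tbx3os1 is not given in the sources used here.

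**Figure D2:**
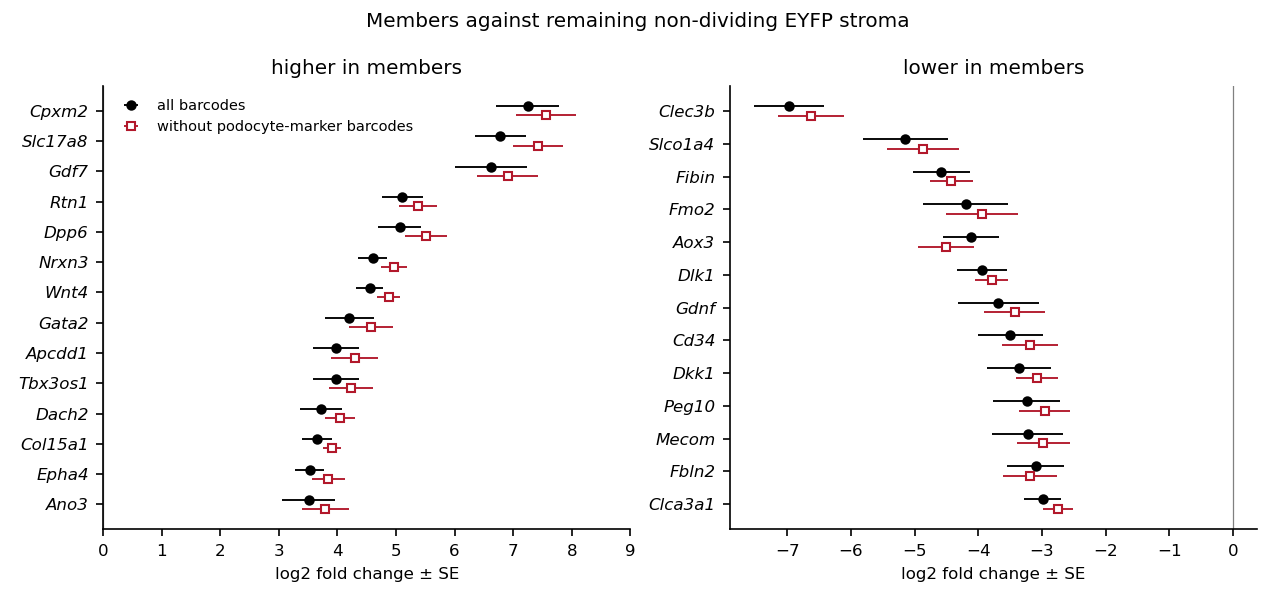
Log2 fold changes with SE (edgeR) of the genes with the largest increases and decreases by the naming rule, members against the other non-dividing EYFP stroma, over all barcodes (black) and without podocyte-marker barcodes (red). Each gene shown kept its direction without those barcodes, and Cpxm2 and Clec3b lie at the ends with 7.25 and -6.97.

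Most of the tested targets of Wnt/β-catenin signalling rose in members. Of 14 listed genes 11 were tested, and 7 were higher and none lower in members, with a median log2 fold change of 1.71 beside -0.0075 over all genes tested. Lef1, a transcription factor that binds β-catenin, stood at 147 and 119 CPM against 19.2 and 20.3 (2.69 ± 0.24, adjusted p = 0.00021; 3.57 without podocyte-marker barcodes). Nkd1, a feedback inhibitor in the same pathway, stood at 229 and 213 CPM against 37.6 and 40.0 (2.46 ± 0.22, adjusted p = 0.00021). In both genes each member sum was above each sum of the other stroma.

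The remaining calls of the list were further feedback and target genes. Nkd2 rose by 2.56, the scaffold gene Axin2 by 1.70, the membrane Wnt inhibitor Apcdd1 by 3.98, the cyclin Ccnd1 by 1.22 and Notum, a secreted enzyme that inactivates Wnt proteins, by 5.85 on the log2 scale. Notum rested on 8 and 10 UMIs in members. Tcf7 (1.52, adjusted p = 0.078) and Tnfrsf19 (1.71, adjusted p = 0.089) did not pass over all barcodes and did without podocyte-marker barcodes, where 9 of 10 tested genes were higher and the median was 2.80. Znrf3 (0.43) and Sp5 (0.71) did not pass.

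Among 25 tested Wnt ligands, receptors and modulators, 6 were higher and 2 lower, with a median of 0.09. Besides Wnt4 the ligands Wnt11, Wnt5a, Wnt5b and Wnt6 and the secreted Wnt-binding protein Sfrp2 were higher. Wnt11 stood at 57.5 and 84.1 CPM against 12.9 and 12.8 (2.40 ± 0.25, adjusted p = 0.00057), and Wnt5a at 189 and 147 CPM against 57.5 and 51.0 (1.58 ± 0.21, adjusted p = 0.0028). Dkk1, a secreted antagonist of Wnt receptors, was lower, at 29.95 and 3.82 CPM against 139 and 141 (-3.37 ± 0.50, adjusted p = 0.0051). Ror1, a receptor for Wnt5a, was the other lower gene (-2.09, adjusted p = 0.049). The Frizzled genes Fzd1 and Fzd2 had log2 fold changes of -0.30 and 0.14 and did not pass.

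**Figure D3:**
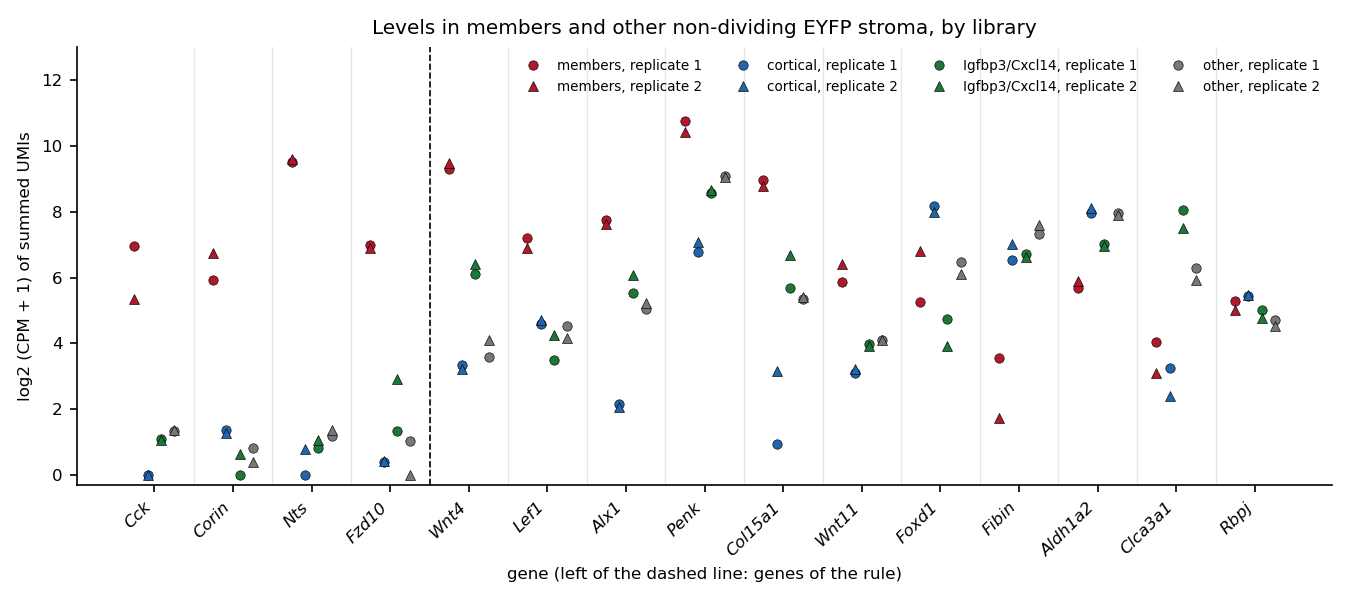
Levels as log2 (CPM + 1) of summed UMIs in each library (circles replicate 1, triangles replicate 2) for members and the 3 other groups of non-dividing EYFP stroma. Wnt4, Lef1, Alx1, Penk, Col15a1 and Wnt11 lie above all 3 other groups in both libraries, whereas Rbpj lies among them.

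Peptide hormone genes other than those of the rule were few. Of 17 listed, 6 were tested, with Penk and Edn3 higher and Adm lower (median 0.30). Penk, the precursor of enkephalins, stood at 1722 and 1382 CPM against 354 and 356 (2.07 ± 0.22, adjusted p = 0.00057). Edn3, an endothelin, stood at 39.5 and 39.0 CPM against 11.7 and 10.3 (1.79 ± 0.29, adjusted p = 0.0083). Adm, the vasodilator adrenomedullin, stood at 34.7 and 39.7 CPM against 114 and 95.6 (-1.52 ± 0.24, adjusted p = 0.0062), and its log2 fold change was -3.83 (adjusted p = 6.9e-05) without podocyte-marker barcodes.

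Few genes that process or receive peptides passed. Of 7 processing genes tested, the convertase Pcsk5 (1.30 ± 0.22, adjusted p = 0.011) and the amidating enzyme Pam (1.13 ± 0.23, adjusted p = 0.023) were higher, and the carboxypeptidase Cpe was at -0.45 (adjusted p = 0.58). Without podocyte-marker barcodes Cpe was lower (-1.90, adjusted p = 0.00074). Of 10 receptors tested, Oxtr for oxytocin was higher, at 3.59 and 18.3 CPM against 0.723 and 1.42 (3.18 ± 0.59, adjusted p = 0.016). Agtr1a, an angiotensin II receptor, was lower (-1.89 ± 0.40, adjusted p = 0.031). The Nts receptor gene Ntsr1 stood at 3.59 and 1.53 CPM in members against 5.68 and 7.37 (-1.52 ± 0.68, adjusted p = 0.42).

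No tested gene of the Notch pathway, in which Rbpj acts, passed over all barcodes. Rbpj stood at 38.3 and 31.3 CPM in members against 32.5 and 30.9 (0.07 ± 0.25, adjusted p = 0.97), and the groups overlapped. A transcript that lacks an internal exon still gives 3′ UMIs, so Rbpj counts do not show whether the floxed copy was removed. The list held 11 tested genes with a median of 0.07. The receptor genes Notch1, Notch2 and Notch3 had log2 fold changes of -0.33, 0.57 and 0.62, the targets Hes1 and Hey1 -0.65 (adjusted p = 0.20) and 1.58 (adjusted p = 0.056). Without podocyte-marker barcodes Hes1 was lower (-1.48, adjusted p = 0.012).

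Regulators of patterning changed in both directions. Of 21 stromal transcription factors tested 3 were higher and 2 lower (median 0.03), and without podocyte-marker barcodes 5 and 8. Alx1, a homeobox factor of mesenchyme, stood at 213 and 198 CPM against 26.3 and 31.3 (2.79 ± 0.23, adjusted p = 0.00012) and was present in 82.5% and 85.3% of members, against 0.154% and 0 of 421 endothelial-type barcodes, which allows up to 0.713%. Tbx2 (1.68 ± 0.25) and Foxl1 (1.68 ± 0.30) were also higher, and Twist1 (-2.77 ± 0.46) and Ebf1 (-2.25 ± 0.42) lower. Ebf1 stood at 125 and 26.7 CPM in members, so its level in replicate 1 was well above that in replicate 2, and both were below the 296 and 271 of the other stroma.

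Foxd1, the gene of the Cre driver and of cortical stroma, depended on the podocyte-marker barcodes. It stood at 37.1 and 111 CPM in members against 136 and 121 (-0.95 ± 0.34, adjusted p = 0.24). In 5 member barcodes lay 90.3% of its UMIs in replicate 1 and 95.9% in replicate 2. Without podocyte-marker barcodes the log2 fold change was -3.89 (adjusted p = 6.8e-05). Among the Hox genes, which mark position along the body axis, 3 of 13 tested were higher and none lower (median 0.13), namely Hoxa10 (1.26 ± 0.21), Hoxa11 (1.35 ± 0.23) and Hoxd10 (1.09 ± 0.21). Without podocyte-marker barcodes 5 were higher and 1 lower.

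BMP, Hedgehog and retinoic acid genes showed a few changes each. Of 18 BMP and TGF-β genes 4 were higher and 1 lower (median 0.05), and 6 and 2 without podocyte-marker barcodes. Bmp4, a ligand, stood at 184 and 142 CPM against 70.2 and 58.3 (1.29 ± 0.21, adjusted p = 0.0080). Id4 (3.05) and Bmper (2.04) were also higher and Id2 (-0.97, adjusted p = 0.043) lower. Of 10 Hedgehog genes the receptor and target Ptch1 was higher (0.96 ± 0.22, adjusted p = 0.045) and the co-receptor Boc lower (-2.21 ± 0.38, adjusted p = 0.011), with a median of -0.11. Without podocyte-marker barcodes Gli1 was higher too.

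In the retinoic acid list 1 gene of 11 was higher and 2 lower (median -0.68), and 2 of 10 and 3 without podocyte-marker barcodes. Aldh1a2, which makes retinoic acid, stood at 50.3 and 58.1 CPM against 214 and 224 (-2.07 ± 0.22, adjusted p = 0.00057). Dhrs3, which reduces retinal to retinol, was lower (-1.55 ± 0.28, adjusted p = 0.015), and Stra6, a receptor for retinol uptake, higher (3.24 ± 0.52, adjusted p = 0.0080). The log2 fold change of Aldh1a2 was -3.53 and that of Dhrs3 -2.15 without podocyte-marker barcodes. All sums of Aldh1a2 in members lay below those in the other stroma.

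**Figure D4:**
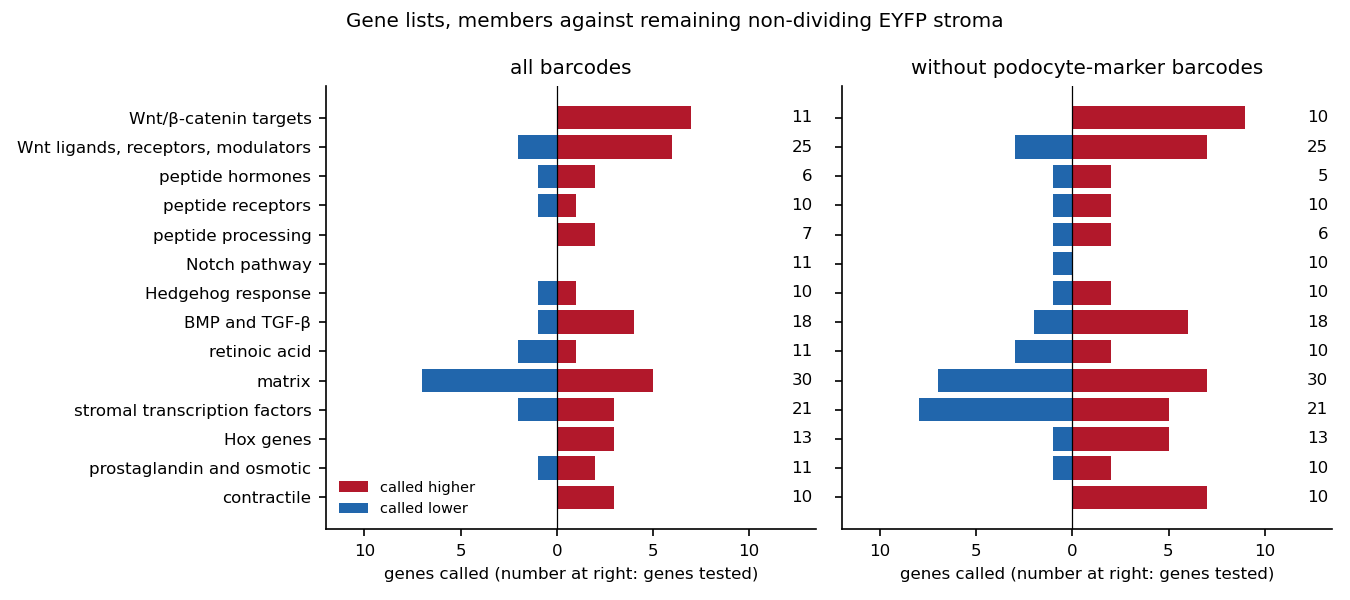
Numbers of genes called higher (red, right) and lower (blue, left) in members per list, against the other non-dividing EYFP stroma, over all barcodes and without podocyte-marker barcodes; the number at the right edge is the genes tested. The Wnt/β-catenin targets had 7 higher and none lower of 11, and 9 and none of 10.

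Matrix genes changed in both directions. Of 30 tested 5 were higher and 7 lower (median -0.24). Those higher were the basement membrane collagens Col4a1 (1.36 ± 0.21, adjusted p = 0.0060) and Col4a2 (1.30 ± 0.20), fibronectin (Fn1, 1.15 ± 0.21), versican (Vcan, 1.06 ± 0.24) and Spon1 (1.80 ± 0.37). Those lower were Col14a1 (-1.76 ± 0.36), Lox (-1.80 ± 0.23), Mgp (-1.93 ± 0.38), Dcn (-1.50 ± 0.35), Ogn (-1.27 ± 0.24), Fbln5 (-1.01 ± 0.21) and Fbn1 (-0.95 ± 0.22), which encode proteins of fibrillar and elastic matrix and the enzyme that cross-links them. Mgp stood at 491 and 115 CPM in members, and its spread between libraries was wide against the 983 and 807 of the other stroma.

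Contractile genes were higher in part. Of 10 tested 3 were higher and none lower (median 1.12), and 7 without podocyte-marker barcodes. Tagln, an actin-binding protein of smooth muscle, stood at 1035 and 1240 CPM against 439.7 and 458 (1.29 ± 0.20, adjusted p = 0.0071). Its UMIs were unevenly spread: 5 members held 54.1% of them in replicate 1 and 29.2% in replicate 2, with medians of 4 and 14 UMIs per member. Myh11, the smooth muscle myosin heavy chain, rose by 1.85 ± 0.22 (adjusted p = 0.0013) and Lmod1 by 1.82 ± 0.28. Acta2 stood at 1489 and 1775 CPM against 933 and 766 (0.90 ± 0.22, adjusted p = 0.061). Without podocyte-marker barcodes Acta2 stood at 1699 and 3064 CPM against 1195 and 927 and was higher (1.12, adjusted p = 0.017). When EYFP was not required of the comparison groups or members, Myh11 was at -0.045 (adjusted p = 0.99). In replicate 1 a single member, with 3 UMIs of Corin and none of the other rule genes, held 222 of 864 UMIs of Tagln, 220 of 1243 of Acta2 and 37 of 82 of Myh11. Without it the replicate 1 members stood at 782 CPM of Tagln, 1246 of Acta2 and 54.8 of Myh11, each still above the other stroma, where Myh11 stood at 29.8 CPM. The fit was not repeated without it.

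Among genes of salt and prostaglandin handling, which act in the medulla after birth, 2 of 11 tested were higher and 1 lower (median -0.38). Nfat5, the transcription factor of the response to high osmolality, stood at 396 and 507 CPM against 133 and 125 (1.75 ± 0.21, adjusted p = 0.0014; 2.38 without podocyte-marker barcodes). Ptger1, a prostaglandin E2 receptor, was higher (1.86 ± 0.43, adjusted p = 0.049), and Hpgd, which degrades prostaglandins, lower (-3.46 ± 0.78, adjusted p = 0.042). Hpgd rested on 1 UMI in members of each library.

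Cdkn1c, an inhibitor of cyclin-dependent kinases and a listed medullary marker, was found in every member. Without podocyte-marker barcodes it was also in 96.6% of 756 and 93.9% of 641 non-dividing EYFP stroma barcodes with 0 rule-gene UMIs. It stood at 4621 and 12074 CPM in members against 4138 and 3484 (0.93 ± 0.35, adjusted p = 0.29). Without podocyte-marker barcodes the log2 fold change was 3.10 (adjusted p = 1.9e-05). Of 16 division genes none was higher and 2 were lower (median -1.38), Mki67 (-2.66 ± 0.45) and Birc5 (-2.35 ± 0.38), beside a limit of at most 1 Top2a UMI in both groups. Without podocyte-marker barcodes 2 were higher, Cdkn1c and Ccnd2, and 5 lower.

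The largest decreases included listed markers and growth factors of other stromal zones. Fibin, a listed cortical marker, stood at 10.8 and 2.29 CPM in members against 121 and 146 (-4.58 ± 0.45, adjusted p = 0.00037). Gdnf, the ligand of the receptor Ret on the ureteric bud, stood at 10.8 and 0 CPM against 54.0 and 53.8 (-3.69 ± 0.63, adjusted p = 0.011). Dlk1, a membrane protein related to Notch ligands, stood at 21.6 and 6.88 CPM against 179 and 207 (-3.94 ± 0.39, adjusted p = 0.00037). In these 3 genes each member sum lay below each sum of the other stroma. The rule that named them required a lower level in members within each library.

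Of 5 adventitial markers, genes of fibroblasts around vessels, 3 were lower (Clec3b, Pi16 and Cd34) and none higher. Clec3b, which encodes tetranectin, had 0 and 1 UMIs in members against 51.7 and 63.5 CPM (-6.97 ± 0.55, adjusted p = 9.6e-05). The transporter Slco1a4 (-5.14), the oxidases Fmo2 (-4.20) and Aox3 (-4.12), and Cd34 (-3.50) were lower as well. Clca3a1 stood at 15.6 and 7.64 CPM against 105 and 68.7 (-2.99 ± 0.29, adjusted p = 0.00034). Peg10 (-3.24), Mecom (-3.22) and Fbln2 (-3.10) were also lower. Of the erythroid markers 4 of 4 tested globin genes were lower too, and the summed level of the 5 markers was 676 and 115 CPM in members against 1646 and 2515. The median barcode did not differ, with 3 and 2 UMIs of these markers in members and 3 and 2 in the other stroma, while single barcodes reached 370 and 9 UMIs in members and 2286 and 6299 in the other stroma. Their part in the decreases was not tested.

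The marker lists of stroma were read against the working name. Outside the rule genes, the medullary list held Wnt4, Lef1 and Cdkn1c, of which the first and second passed over all barcodes and all 3 without podocyte-marker barcodes. Of 8 cortical markers 4 were lower (Ntn1, Aldh1a2, Fibin and Clca3a1) and 1 was higher, Crym, with Foxd1 also lower and Sfrp1 also higher without podocyte-marker barcodes. Crym stood at 86.3 and 67.3 CPM against 4.24 and 10.2 (3.42 ± 0.38, adjusted p = 0.00077). It had a UMI in only 12 of 63 and 17 of 75 members, and 5 members held 87.5% and 56.8% of its UMIs. Of the 5 markers of Igfbp3 and Cxcl14 stroma, the chemokine gene Cxcl14 was higher, at 268 and 246 CPM against 33.9 and 36.4 (2.82 ± 0.22, adjusted p = 8.6e-05). Igfbp3, which encodes a binding protein of insulin-like growth factors, was lower, at 41.9 and 61.1 CPM against 314 and 266 (-2.53 ± 0.25, adjusted p = 0.00037), as was Dcn. The list of ureter stroma moved with the members too: its 5 markers summed to 356 and 245 CPM in members against 116 and 101. Of its 3 tested genes Tbx2 and Bmp4 were higher and Tbx18 did not pass (0.93, adjusted p = 0.60), and Foxf1 had 0 UMIs in members. Its part in the results was not tested. The 5 smooth muscle markers summed to 2673 and 3199 CPM in members against 1423 and 1283. The 5 mesangial and renin cell markers summed to 412 and 220 CPM against 296 and 281, higher in replicate 1 only. Members thus carried listed medullary markers besides the rule genes. Wnt4 was proposed from the same data, and the lists were chosen with earlier results of these data known. The medullary list is therefore no independent test of the working name, and the members' position in the kidney was not measured. Members that also met the full rule for cortical stroma used below numbered 5 and 10, and those that met the full rule for Igfbp3 and Cxcl14 stroma 22 and 33. In 6 and 12 members both sets of genes reached 2 UMIs, and in 30 and 20 neither did.

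Markers of other cell types did not all move one way. The 5 nephron progenitor markers, a list that also holds Crym, summed to 177 and 74.1 CPM in members against 26.2 and 71.3, and without podocyte-marker barcodes to 192 and 127 against 28.1 and 81.0. Crym was the 1 gene of 4 tested that passed, and Six2, which maintains nephron progenitors, stood at 26.4 and 1.53 CPM against 3.72 and 11.9 (0.64, adjusted p = 0.90). The 5 podocyte markers summed to 477 and 2353 CPM in members against 1936 and 1645, and to 42.7 and 30.7 against 26.9 and 22.6 without podocyte-marker barcodes. The ureteric markers Ret and Wnt7b had 0 UMIs in members of both libraries, and the 5 ureteric markers summed to 12.0 and 8.41 CPM. The endothelial markers summed to 122 and 43.6 CPM against 45.5 and 42.2, and the immune markers to 99.4 and 3.82 against 25.9 and 9.31. Without podocyte-marker barcodes the endothelial sums were 141 and 73.9 against 55.4 and 49.9, above the other stroma in both libraries, and the immune sums 118 and 6.97 against 32.7 and 11.003. No gene of the podocyte, ureteric, endothelial and immune lists passed over all barcodes, and 1 did without podocyte-marker barcodes, Emcn, which encodes endomucin of endothelium (1.67, adjusted p = 0.0011). The part of these cells in the results was not tested. The early nephron list rested on the podocyte-marker barcodes. Its 5 markers summed to 59.9 and 70.3 CPM in members against 30.5 and 29.5, and to 14.2 and 8.36 against 17.2 and 18.8 without podocyte-marker barcodes. Pax8, a nephron and ureteric regulator on it, stood at 28.8 and 45.9 CPM against 13.7 and 11.4 over all barcodes (1.52, adjusted p = 0.031), and with 1 UMI in members of each library without podocyte-marker barcodes it was at -1.33 (adjusted p = 0.46).

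To place the members within the stroma, they were compared with cortical stroma (at least 2 UMIs of Foxd1, Ntn1 and Crym and fewer than 2 of Igfbp3 and Cxcl14; 199 and 193 barcodes) and with stroma rich in Igfbp3 and Cxcl14 (the reverse; 290 and 211). These comparisons share the member sums with each other and with the comparison above. Against cortical stroma 572 of 11643 genes (4.91%) were higher and 226 (1.94%) lower, and against Igfbp3 and Cxcl14 stroma 637 (5.47%) and 483 (4.15%). Podocyte-marker barcodes were 86 of 199 and 52 of 193 of the cortical group and held 63.2% and 44.2% of its UMIs. Without them the counts were 904 (8.59%) and 826 (7.85%) against cortical stroma, and 459 (4.36%) and 455 (4.32%) against Igfbp3 and Cxcl14 stroma.

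Wnt4 separated the members from both groups, with a log2 fold change of 6.26 ± 0.19 (adjusted p = 4.7e-06) against cortical stroma and 3.02 ± 0.16 (adjusted p = 0.00017) against Igfbp3 and Cxcl14 stroma. It stood at 9.12 and 8.24 CPM in the former and at 68.1 and 84.1 in the latter. Col15a1 stood at 0.943 and 7.88 CPM in cortical and 50.6 and 101 in Igfbp3 and Cxcl14 stroma, with log2 fold changes of 6.84 and 2.59. Alx1 gave 5.92 and 1.78, Penk 3.70 and 1.86. For each of these 4 genes all member sums were above all sums of both groups.

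Cpxm2 and Gdf7 had 0 UMIs in cortical stroma of both libraries. Against a floor of 3 counts over the group they were at least 87.3-fold and at least 52.0-fold higher in members. Matrix and contractile genes gave different values in the 2 comparisons. Col4a1 had a log2 fold change of 2.77 ± 0.12 (adjusted p = 1.5e-05) against cortical and 0.35 ± 0.11 (adjusted p = 0.088) against Igfbp3 and Cxcl14 stroma. Acta2 gave 2.35 ± 0.16 (adjusted p = 0.00012) and 0.00 ± 0.15 (adjusted p = 1), and Fbln5 0.75 ± 0.14 (adjusted p = 0.015) and -2.20 ± 0.13 (adjusted p = 0.00038). Clca3a1 (0.81, adjusted p = 0.22, and -4.42, adjusted p = 0.00017) also differed in level from Igfbp3 and Cxcl14 stroma. The difference between the comparisons was not tested.

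Several values against these groups changed without podocyte-marker barcodes. Lef1 moved from 2.45 (adjusted p = 0.00081) to 6.68 against cortical stroma, and Cdkn1c from -0.14 (adjusted p = 0.89) to 3.18 (adjusted p = 5.2e-08). Pcp4, R3hdml and Wipf3 were among the largest increases against Igfbp3 and Cxcl14 stroma (6.65, 6.61 and 6.31). Without podocyte-marker barcodes Pcp4 was at -1.41 (adjusted p = 0.51), and R3hdml and Wipf3 had 0 and 1 UMIs in members and entered no test. Cxcl10, lower against cortical stroma (-5.29 ± 0.61, adjusted p = 0.0017), lay in 3.52% and 1.04% of that group's barcodes and had 0 UMIs there without the podocyte-marker barcodes. Against Igfbp3 and Cxcl14 stroma Col4a1 moved from 0.35 to 0.90 (adjusted p = 0.00057), and Acta2 from 0.00 to 0.66 (adjusted p = 0.071). Acta2 in the Igfbp3 and Cxcl14 stroma stood at 1592 and 1415 CPM with these barcodes and at 1596 and 1420 CPM without them, while the member sums are those given above. Against cortical stroma Fbln5 moved from 0.75 to 0.19 (adjusted p = 0.56).

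Wnt4, Lef1 and Alx1 were found in larger shares of barcodes with 30 or more rule-gene UMIs than of barcodes with none, as a description over all non-dividing EYFP stroma without podocyte-marker barcodes. The shares did not rise at every step between, and several of the bins hold few barcodes. Barcodes with 0 rule-gene UMIs had a UMI of Wnt4 in 8.47% of 756 and 6.24% of 641. Just below the threshold, with 1 UMI, the share was 37.0% of 27 and 51.7% of 29. Just above it, with 2 UMIs, the share was 66.7% of 12 and 66.7% of 6. With 3 UMIs it was 1 of 3 and 4 of 5 barcodes, with 10 to 29 it was 77.8% and 91.3%, and with 30 or more 7 of 7 and 17 of 18. Lef1 was found in 6.75% and 5.46% with 0, 25.9% and 44.8% with 1, 3 of 12 and 2 of 6 with 2, and 72.2% and 69.6% with 10 to 29. Alx1 was found in 17.6% and 16.1% with 0, 55.6% and 75.9% with 1, 7 of 12 and 4 of 6 with 2, and 94.4% and 95.7% with 10 to 29. So barcodes next to the threshold on both sides carried Wnt4 more often than those with no rule-gene UMI. Foxd1 was found in 42.5% and 40.2% with 0 UMIs, 11.1% and 3.45% with 1, and 5 of 12 and 0 of 6 with 2. With 10 to 29 it was in 0 of 18 and 0 of 23 barcodes, which by a floor of 3 counts allows up to 16.7% and 13.04%. In replicate 1 its share just above the threshold was thus about that of barcodes with no rule-gene UMI. Its level there was lower, at 31.3 against 97.95 CPM. The 12 barcodes were also deeper, with a median of 12908.5 against 9292 UMIs. The bins share libraries, and deeper barcodes reach higher bins more easily: the median depth was 9292 and 8895 UMIs with 0 rule-gene UMIs and 14860 and 11741.5 with 30 or more.

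**Figure D5:**
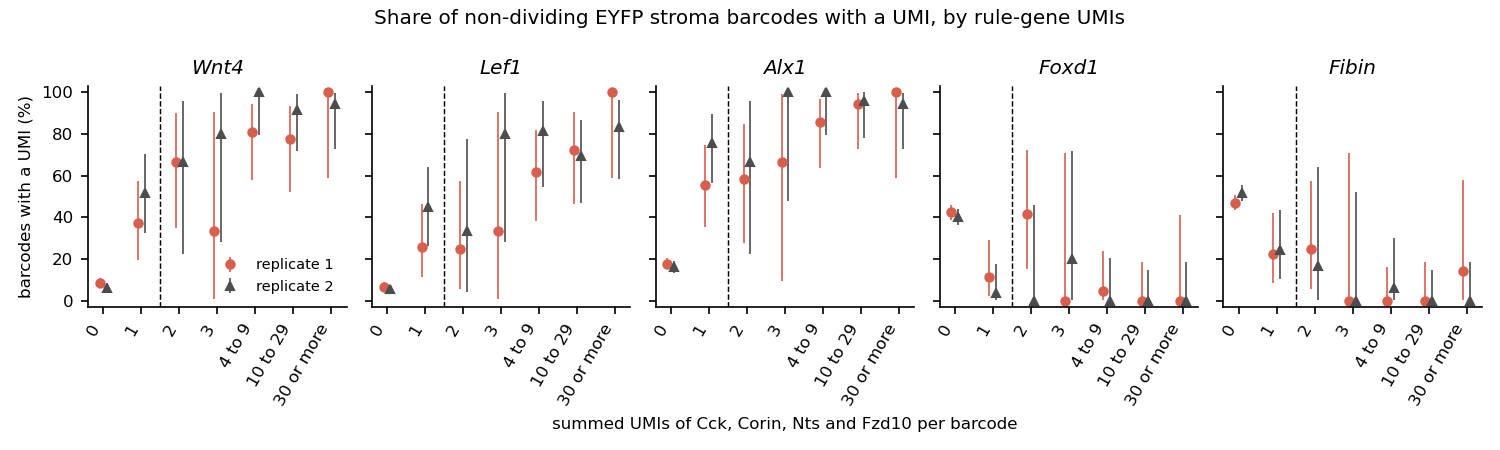
Percent of non-dividing EYFP stroma barcodes, podocyte-marker barcodes left out, with a UMI of Wnt4, Lef1, Alx1, Foxd1 or Fibin by the summed UMIs of the 4 rule genes (exact 95% binomial intervals; the dashed line is the threshold for members). Wnt4 goes from 8.47% and 6.24% with none to 7 of 7 and 17 of 18 barcodes with 30 or more.

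Among themselves, members with a UMI of Corin differed in level from those with none. Without podocyte-marker barcodes, the 20 and 41 members with Corin stood at 1195 and 1483 CPM of Wnt4, and the 41 and 27 without it at 516 and 859. Crym stood at 269.9 and 179 CPM with Corin and at 10.5 and 12.4 without it, and Cdkn1c at 9447 and 12484 against 2582 and 2606. In each of these genes members with Corin lay higher in both libraries. Crym rested on few cells, with a UMI in 10 of 61 and 17 of 68 of these members. Acta2 was closer, at 1912 and 3312 against 1598 and 2577 CPM. The split by Nts, the rule gene most members carried, did not give this order: Wnt4 stood at 735 and 1184 CPM with Nts and at 731 and 1511 without it. By Fzd10 Wnt4 stood at 1095 and 1413 CPM with and 314 and 822 without, and by Cck at 960.0 and 1357 with and 588 and 1236 without. These splits share the rule that chose the members and carry no test.

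The genes most like the 4 rule genes were taken as those with the highest ratio of the mean member CPM to the highest mean CPM among the 3 other groups of non-dividing EYFP stroma, over 2 libraries. Among them were Cpxm2 (ratio 61.4), Gdf7 (39.2), Slc17a8 (30.4), Dpp6 (23.6), Lrfn5 (21.6), Rtn1 (19.1) and Apcdd1 (11.01). The rule genes themselves gave 514 for Nts, 55.0 for Corin, 51.3 for Cck and 30.2 for Fzd10. The rule makes these ratios high, since every barcode of the other groups had fewer than 2 rule-gene UMIs. Cpxm2 was found in 17.5% and 37.3% of members, and Gdf7 in 19.0% and 24.0%. Both were in at most 1 erythroid-type or endothelial-type barcode of a library. For both the share of members was larger in replicate 2.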

How the data were processed

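The deposited values are raw UMI counts per gene and barcode, written by Cell Ranger 4 per the file headers; the submitters' processing notes name Cell Ranger 6.0.1 and the build mm10. The matrices held 2720964 and 2654938 unfiltered barcodes and 28693 features. Members and gene lists were chosen with earlier results of these data known. Doublets were not removed in the main analysis; Scrublet would remove 310 and 212 barcodes, 4 and 1 of them members. UMIs were summed per library and group and tested with edgeR 4.0.16 (R 4.3.3; TMM, filterByExpr, quasi-likelihood, library as a block because groups of a comparison come from the same libraries), with Benjamini-Hochberg adjustment over all genes tested and a threshold of 0.05. The comparisons with 2 groups left 1 residual degree of freedom and that with 4 groups left 3. On simulated counts for the main comparison (12058 genes) 80.2% of 4-fold and 11.5% of 2-fold changes were recovered with 1 false call. The simulation gave all genes 1 common dispersion (0.0376) and no difference between libraries. It held no deep podocyte-marker barcodes as such, so these rates need not hold for the real sums. Levels are CPM of the summed counts, and intervals cover counting error only. Named genes passed both comparisons with EYFP stroma in 1 direction, held that direction in each library and had at least 20 CPM in the higher group. The 14 largest each way were taken, and the 5 largest each way against cortical and against Igfbp3 and Cxcl14 stroma. Added to these were up to 4 per list and all stromal zone markers. A further 2 alternatives, without podocyte-marker barcodes and with barcodes thinned to 4000 UMIs, were chosen after seeing the data. Coordinates are from RefSeq on GRCm38.p6, matched by symbol. Some of the genes that the rule names are not reported here.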

Additional observations from a re-analysis of the deposited data

How the results depend on the processing

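Counts of genes called moved by over 1.5 times under some settings. Against the other EYFP stroma (593 called) they were 41 with a mitochondrial limit of 5%, 1711 with at least 3 rule-gene UMIs, 913 with EYFP not required, 2129 with barcodes of 5000 to 20000 UMIs, 1499 without podocyte-marker barcodes, 1190 with no filter on low counts and 383 by DESeq2. Against the other non-dividing EYFP stroma (376) they were 0, 1142 and 1605 under the limit of 5%, the minimum of 3 and the depth range, 836 without podocyte-marker barcodes, 181 by DESeq2 and 239 with no replicate block. Against cortical stroma (798) they were 9, 2017, 2097, 1730 and, with no filter, 1330. Against Igfbp3 and Cxcl14 stroma (1120) they were 1795 with EYFP not required, 579 with thinned barcodes and 1719 with no filter. The share of members in EYFP stroma was 2.56% with the limit of 5%, and 4.34% or 6.39% with 1 library left out. Direction turned for Pax8 in the main comparison without podocyte-marker barcodes (-1.33), for Myh11 in the main comparison with EYFP not required (-0.045), for Lmod1 (-0.21) and Tagln (-0.028) with the limit of 5%, where podocyte-marker barcodes held 89.3% of the replicate 2 members' UMIs, for Cdkn1c against cortical stroma in the depth range (0.78) and without podocyte-marker barcodes (3.18), and against Igfbp3 and Cxcl14 stroma for Pcp4 without podocyte-marker barcodes (-1.41) and R3hdml in the depth range (-5.17). Of 71 named genes called in the main comparison, 18 lost the call by DESeq2, 19 with no replicate block, 12 with Scrublet doublets removed and 12 with thinned barcodes. Ntn1 and Hpgd lost it under all 4. Gdnf, Mecom, Ptch1, Bmper and Ptger1 lost it under the first 3, Agtr1a and Dhrs3 under all but the Scrublet removal, and Wnt6 under all but the missing block. Dkk1, Oxtr and Spon1 lost it by DESeq2 and with no block, Edn3 by DESeq2 and when thinned, Pam by DESeq2 and under Scrublet, Mgp and Col14a1 with no block and under Scrublet, and Lmod1 under Scrublet and when thinned. Pcsk5, Hoxa11 and Hoxd10 lost it by DESeq2 alone of these, Fmo2, Lox, Twist1, Ebf1 and Lrfn5 with no block alone, and Slco1a4, Cd34, Peg10, Boc and Birc5 when thinned alone. Outside these 4 settings, 7 genes lost the call with EYFP not required, beside Myh11, which turned. With a mitochondrial limit of 20% 5 lost it, with RLE in place of TMM 3, and against barcodes with 0 rule-gene UMIs 3. With a UMI minimum of 4000 1 lost it, and with the limit of 5% none kept it. Leaving out a library left no residual degrees of freedom, and all 71 kept their direction in each library. The naming rule required this of the genes with the largest changes. The scaling alternatives moved the median of all genes by under 0.1 on the log2 scale.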
